A study of Homo sapiens with 35 samples.

Results

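The effect of a short hairpin RNA against CDK8 was measured in HCT116 cells, a human colorectal carcinoma cell line, grown without any treatment. The comparison holds 6 arrays of the 35 in the series, chosen by their titles: 3 of cells with the hairpin against CDK8 (shCDK8) and 3 of cells with the control hairpin (shControl), both labelled normal growth. All were plated 24 h before in McCoy's medium with 10% fetal calf serum and received no agent, so both groups carry a hairpin and differ, as far as the labels say, only in its target. The labels give neither the hairpins' sequences nor whether each line is a clone or a pool, and they do not say that the 3 arrays of a group came from separate cultures, so the p-values here reflect how far single arrays of a group scatter, a scatter that can be purely technical. Beside it stand 3 arrays of cells with a hairpin against CDK19 in the same medium, and shCDK8 and shControl cells of 3 further experiments: low glucose medium for 24 h (3 arrays per group), 5-fluorouracil, a drug that disturbs thymidine synthesis, for 12 h (2 per group), and 1% oxygen for 24 h (2 per group).

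CDK8 is a cyclin-dependent kinase that, with cyclin C, MED12 and MED13, forms the kinase module of Mediator, the large complex that passes signals from DNA-bound transcription factors to RNA polymerase II. The module binds core Mediator reversibly and can both raise and lower the transcription of its target genes, in part by phosphorylating transcription factors such as SMADs. CDK8 is known in colorectal cancer as an oncogene that acts with beta-catenin, and CDK19 is its close paralogue.

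Expression was read on Affymetrix HuGene 1.0 ST arrays, whose transcript clusters were summarised by the authors as log2 values. The lowest value on any array is 4.32, the log2 of 20, and the highest is 14.29, the log2 of 20000, so a gene at either bound has only a limit there. Of 18404 genes with a cluster that names 1 gene, 238 lay at the lower bound on all 6 arrays. The number of arrays limits the precision of every value, and array data carry no read depth. The first shCDK8 array stood apart. Its correlation with shCDK8 replicates 2 and 3 over all 32321 transcript clusters was 0.987 and 0.989, against 0.997 between those replicates. With each of the 3 shControl arrays it was also 0.987. The middle 50% of the values of this first array spanned 3.50 log2 units, against 3.67 to 3.75 on the other 5 arrays. Replicate 3 of shCDK19 was also narrow, at 3.58, and correlated with the first shCDK8 array at 0.989. With shCDK8 replicates 2 and 3 that shCDK19 array correlated at 0.981 and 0.984. It stays in the main fit and in the fit without shCDK8 replicate 1. The departure of the first shCDK8 array followed the level of the gene. Genes with a mean of 6 to 7 lay a median of 0.30 above replicates 2 and 3. Those with a mean of 9 to 10 lay a median of 0.17 below them. The genes farthest below were SNORD38B, SCARNA9, C6orf15, SNORD20, ZNF814 and SNORD58A, at -1.42 to -1.22, and those farthest above were MIR181C, MIR326, DND1, EHBP1L1, PCDHB16 and CDSN, at 1.02 to 1.10. Small nucleolar and Cajal body RNA genes, which guide chemical changes of other RNAs, lay below in 119 of 193 cases, against 9407 of all 18404 genes, with a median of -0.11. Keratin-associated protein genes, which are hair genes with little expression in the colon, had a median of 0.41 above. Their median shControl level was 6.95, and all genes with a mean of 6 to 7 lay 0.30 above. The comparison of shCDK8 with shControl was therefore also made without this array. Differences of single genes from shCDK19 cells, and all differences from the other experiments, are given with it.

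**Figure D1:**
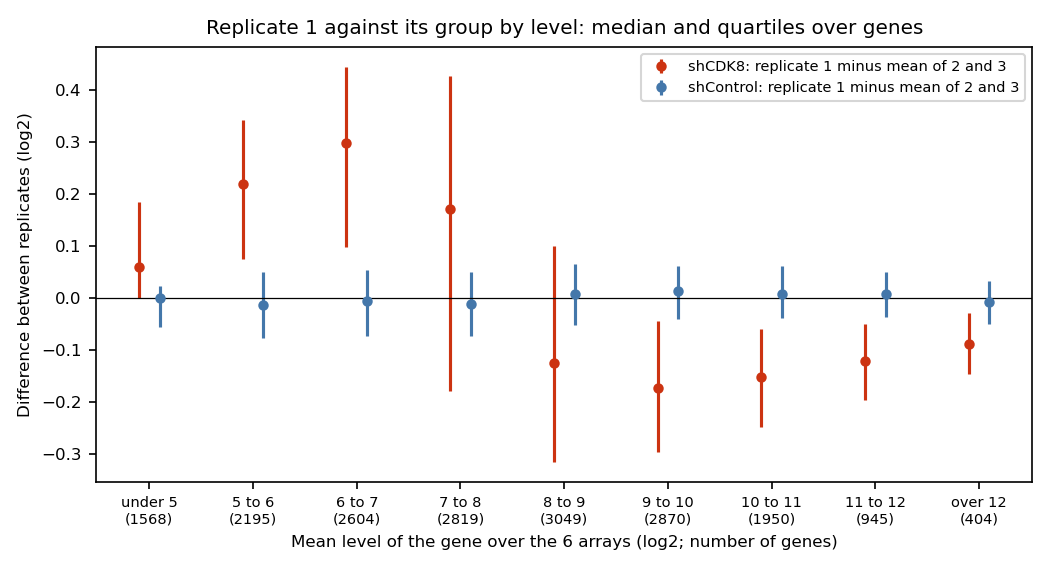
The vertical axis gives the log2 difference between replicate 1 and the mean of replicates 2 and 3 of its group, and the horizontal axis the mean level of the gene over the 6 arrays, with the number of genes in parentheses. Points are medians and bars quartiles over genes; the shCDK8 points run from 0.30 at levels of 6 to 7 down to -0.17 at levels of 9 to 10, while the shControl medians stay between -0.01 and 0.01.

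The targeted transcript was lower on all 3 shCDK8 arrays. The cluster that holds CDK8 also lists ADRA1B, a gene for an adrenergic receptor, so its signal may not be that of CDK8 alone. Its values were 10.36, 10.22 and 10.23 on the shControl arrays (mean 10.27 ± 0.08, SD, n = 3) and 7.58, 8.53 and 8.35 on the shCDK8 arrays (8.15 ± 0.50, SD, n = 3). The groups do not overlap, and replicate 1 has the lowest value. The log2 fold change was -2.12 ± 0.24 (SE), a level 4.35-fold lower, with an adjusted p of 0.00164 (limma, two-sided, Benjamini-Hochberg over all clusters). Without replicate 1 it was -1.84 ± 0.11, with an adjusted p of 0.000369. On the shCDK19 arrays the cluster read 10.51, 10.30 and 10.17, close to the shControl values. CDK19 read 9.10, 9.09 and 9.11 on shControl and 9.32, 9.47 and 9.49 on shCDK8 arrays; these groups do not overlap either, but the difference of 0.33 ± 0.11 did not pass the test (adjusted p = 0.0778, limma).

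Knocking down CDK8 was accompanied by changes in many genes, most of them small. In a fit of all 9 normal growth arrays, 4579 of the 18404 genes (24.9%) differed between shCDK8 and shControl at an adjusted p under 0.05, of which 2091 (11.4% of genes) were higher and 2488 (13.5%) lower. At least 2-fold changes were found for 207 higher genes (1.12%) and 122 lower genes (0.663%), 329 in all (1.79%). The values of the 3 and 3 arrays did not overlap for 6751 genes (36.7%), 2944 with shCDK8 higher (16%) and 3807 with shCDK8 lower (20.7%). Without shCDK8 replicate 1, 6713 genes (36.5%) were called, 2946 higher (16%) and 3767 lower (20.5%). Of the 4579 genes, 4380 were called in the same direction without that array and 199 were no longer called, while 2333 were called only without it and none changed direction. At least 2-fold changes were called for 354 genes (1.92%) without it, 305 of them also with it.

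**Figure D2:**
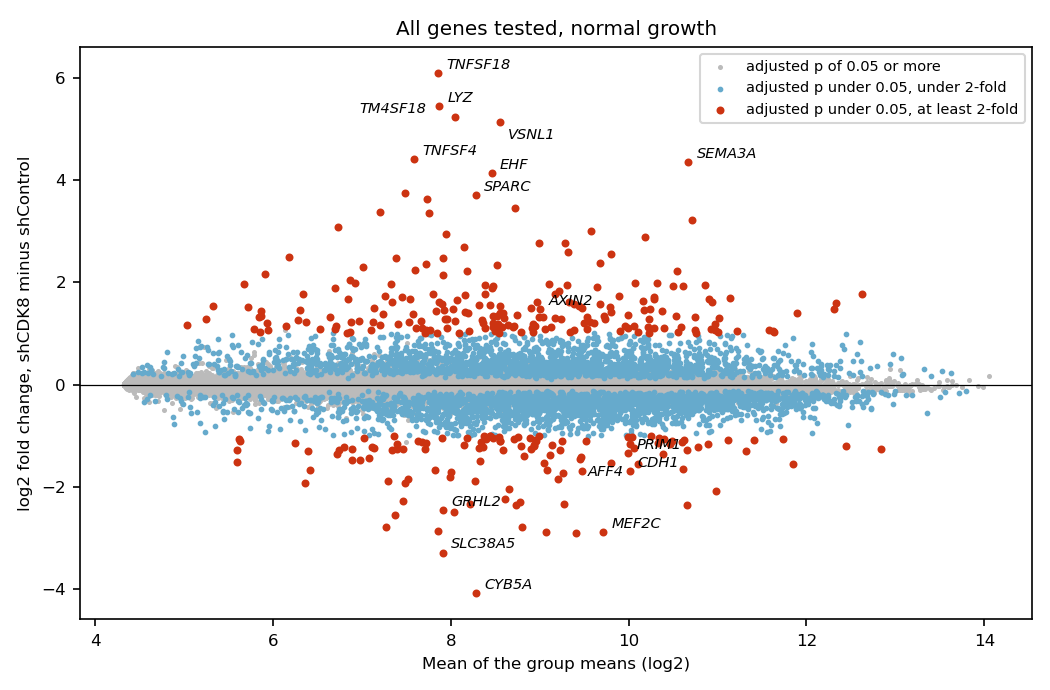
Each point is 1 of 18404 genes, with the mean of the shControl and shCDK8 group means on the horizontal axis (log2) and the log2 fold change, shCDK8 minus shControl, on the vertical axis. The 207 genes at least 2-fold higher reach 6.09 (TNFSF18), and the 122 at least 2-fold lower reach -4.08 (CYB5A).

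Several of the genes that rose most encode secreted or surface proteins and were at low levels in the control cells. TNFSF18, the ligand of the T cell costimulator GITR, read 4.63, 4.83 and 4.97 on shControl arrays and 10.65, 11.04 and 11.01 on shCDK8 arrays. Every shCDK8 array lay more than 5 log2 units above every shControl array, and the log2 fold change was 6.09 ± 0.15 (68-fold, adjusted p = 3.66e-07, limma). LYZ, which encodes the antibacterial enzyme lysozyme, read 5.13, 5.12 and 5.21 against 10.39, 10.65 and 10.74, a log2 fold change of 5.44 ± 0.11. TM4SF18, a transmembrane protein of the L6 family, went from 5.37, 5.44 and 5.49 to 10.46, 10.72 and 10.80, a log2 fold change of 5.23 ± 0.11. These 3 genes were all near the bottom of the scale in control cells and above its middle on each shCDK8 array. VSNL1, a neuronal calcium sensor, read 6.06, 5.99 and 5.91 on shControl and 10.99, 11.14 and 11.21 on shCDK8 arrays, with a log2 fold change of 5.12 ± 0.07. TNFSF4, the ligand of OX40 and the neighbour of TNFSF18 on its chromosome, read 5.35, 5.46 and 5.35 against 9.43, 9.92 and 10.02, with 4.40 ± 0.14. SEMA3A, a secreted axon guidance protein, differed from these in being well expressed in control cells: it read 8.55, 8.51 and 8.45 there and 12.77, 12.90 and 12.86 in shCDK8 cells, with 4.34 ± 0.06. The shCDK8 values of SEMA3A lie near the top of the scale.

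The other genes among the 15 with the highest changes include transcription factors and growth factors. EHF, an epithelial ETS factor, read 6.28, 6.26 and 6.64 against 10.28, 10.67 and 10.63, a log2 fold change of 4.14 ± 0.13. SPARC, a secreted collagen-binding matrix protein, read 6.49, 6.56 and 6.23 against 9.74, 10.51 and 10.15, with 3.71 ± 0.18. TGFB2, a ligand of the TGF-beta receptors, read 5.93, 5.93 and 5.88 against 9.39, 9.63 and 9.62, with 3.63 ± 0.08. Of these, SPARC had the widest spread over the shCDK8 arrays. The others were APOBEC3G, a cytidine deaminase that restricts retroviruses, at 3.74 ± 0.20, the zinc finger factor gene ZBED2 at 3.44 ± 0.07, and the growth factor gene FGF9 at 3.38 ± 0.18. GRIN2B, a subunit of the NMDA glutamate receptor, had a log2 fold change of 3.34 ± 0.09, the polo-like kinase gene PLK2 3.21 ± 0.12, and AOAH, an enzyme that detoxifies bacterial lipopolysaccharide, 3.07 ± 0.13. For all 15 the first shCDK8 array gave the lowest of the 3 shCDK8 values.

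The genes that fell most include several of epithelial cells. CYB5A, cytochrome b5, an electron carrier of fatty acid and steroid metabolism, read 10.27, 10.34 and 10.36 on shControl and 6.12, 6.07 and 6.55 on shCDK8 arrays, a log2 fold change of -4.08 ± 0.14 (16.9-fold lower, adjusted p = 1.24e-06, limma). SLC38A5, a transporter of glutamine and other neutral amino acids, read 9.54, 9.51 and 9.61 against 6.44, 6.34 and 6.01, with -3.29 ± 0.10. MEF2C, a MADS-box transcription factor, read 11.18, 11.16 and 11.16 against 7.99, 8.40 and 8.42, a level 7.42-fold lower. For all 3 genes the groups were separated by more than 2 log2 units. PRAF2, a membrane protein of the secretory pathway, read 10.79, 10.82 and 10.97 against 7.77, 8.10 and 7.98, with -2.91 ± 0.09. MPP7, a scaffold of tight junctions, read 10.46, 10.53 and 10.54 against 7.36, 7.78 and 7.76, with -2.88 ± 0.11. GRHL2, a transcription factor that maintains epithelial junctions, read 9.22, 9.13 and 9.08 against 6.67, 6.64 and 6.75, with -2.46 ± 0.05 and a narrow spread in both groups. The other lower genes were SPTSSB, a small subunit of serine palmitoyltransferase (-2.87 ± 0.07), the transcription factor gene NFIB (-2.79 ± 0.06), the epithelial clathrin adaptor AP1M2 (-2.78 ± 0.08) and the brush border peptidase DPP4 (-2.56 ± 0.10). The cytochrome P450 CYP4F11 (-2.49 ± 0.07), the actin-binding protein palladin, PALLD (-2.35 ± 0.07), the membrane serine protease prostasin, PRSS8 (-2.35 ± 0.06), S100A14 (-2.34 ± 0.08) and the recycling endosome GTPase RAB25 (-2.33 ± 0.14) complete the 15. These 30 genes were chosen among genes whose replicates do not overlap and which are called with and without shCDK8 replicate 1, so neither property is a result.

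**Figure D3:**
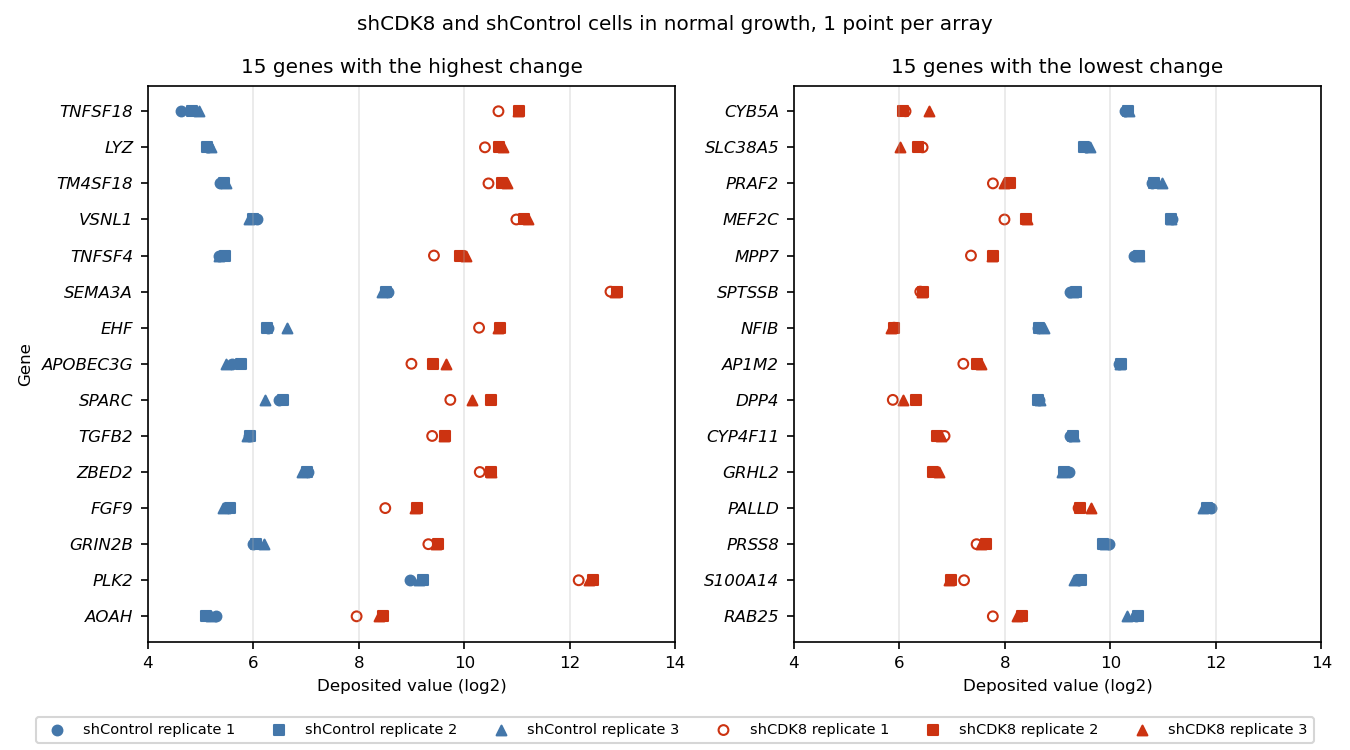
The horizontal axis gives the deposited log2 value on each of the 6 arrays, and each row is 1 of the 15 genes with the highest changes (left) or the 15 with the lowest (right). Blue symbols are shControl and red symbols shCDK8 arrays, with replicate 1 of shCDK8 open; the choice of these genes requires groups that do not overlap, and TNFSF18 goes from 4.63 to 4.97 up to 10.65 to 11.04.

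For each gene list below, the counts of called members stand against 11.4% of all genes called higher and 13.5% called lower, or 16% and 20.5% without shCDK8 replicate 1, and the counts without that array are given where they differ by over 1.5 times.

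Genes of epithelial junctions and polarity were mostly lower in shCDK8 cells. Of 37 measured, 25 were lower and 3 higher, with a median log2 fold change of -0.35, against -0.02 over all genes tested; without replicate 1 they were 26 and 4, with a median of -0.43. CDH1, E-cadherin, the adhesion protein of adherens junctions, read 10.87, 10.80 and 10.90 against 8.99, 9.21 and 9.28, a log2 fold change of -1.70 ± 0.07. The surface protein EPCAM had -1.31 ± 0.04, the tight junction proteins CLDN4 and CLDN7 had -1.24 ± 0.11 and -0.95 ± 0.06, and EHF, above, went the other way. HCT116 cells are labelled a colorectal line, and of 11 measured markers of colon epithelium 5 were lower and 2 higher. Their summed level on the linear scale was 30500 to 31200 in shControl and 28300 to 30100 in shCDK8 cells, a sum that the brightest markers dominate; CDH17, MUC13 and VIL1 were under 7 in shControl cells. In bulk RNA, fewer cells of a type and less RNA per cell cannot be told apart.

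Of 40 mesenchymal and matrix genes, 14 were higher (35%, against 11.4% of all genes) and 4 lower. Without replicate 1 they were 14, against 16% of all genes called higher, and 8. The median was 0.04 and turned to -0.03 without that array. The list thus kept its count of higher genes but had no stable median. Its called members with the largest change were all higher: SPARC, SNAI2 (Slug, a repressor of E-cadherin) at 2.21 ± 0.11, the calcium-binding protein S100A4 at 1.95 ± 0.07 and the matrix protein thrombospondin, THBS1, at 1.68 ± 0.08. SNAI2 read 7.13, 7.07 and 7.04 on shControl and 9.08, 9.26 and 9.53 on shCDK8 arrays, without overlap. Fibroblast markers did not follow: 1 of 12 was higher (ACTA2, 0.29 ± 0.08) and 1 lower (COL1A1, -0.49 ± 0.09), or 2 and 2 without replicate 1, and 9 of the 12 lay under 7 in shControl cells, DCN, LUM and PDGFRA among them. Their summed linear level was 1810 to 1830 in shControl and 1710 to 1850 in shCDK8 cells.

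SMAD proteins carry the signal of TGF-beta and BMP receptors to the nucleus. Among 25 SMADs and SMAD target genes 13 were higher and 2 lower, with a median of 0.28. PMEPA1, a feedback inhibitor induced by TGF-beta, read 6.35, 6.55 and 6.52 on shControl and 8.92, 9.68 and 9.66 on shCDK8 arrays, with replicate 1 the lowest of the second group, and its log2 fold change was 2.95 ± 0.19. CCN2, a matricellular growth factor, had 0.92 ± 0.07. ID2, a BMP target that blocks basic helix-loop-helix factors, was lower, at -1.36 ± 0.09. Of the 29 ligands and receptors measured, 6 were higher and 4 lower: beside TGFB2, the ligand BMP4 rose by 1.59 ± 0.05 and the secreted follistatin-like protein FSTL1 by 0.88 ± 0.08, while TGFB1 fell, from 10.27, 10.23 and 10.19 to 9.25, 9.45 and 9.42, with -0.86 ± 0.06. The ligands TGFB2 and TGFB1 thus moved in opposite directions.

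Targets of the coactivator YAP and its DNA-binding partners, the TEAD factors, were higher in 15 of 27 cases and lower in 2, with a median of 0.22. Besides TGFB2 and CCN2, which other lists hold too, IGFBP3 had 1.10 ± 0.12 and ANKRD1, a muscle ankyrin repeat protein, 0.97 ± 0.09. Integrins, the matrix receptors, were higher in 10 of 22 cases and lower in 1 (10 and 2 without replicate 1). ITGB8, which activates latent TGF-beta, had 1.77 ± 0.10, the hemidesmosome subunit ITGB4 1.47 ± 0.05, ITGA9 0.98 ± 0.11 and ITGA3 0.80 ± 0.05. Of 30 semaphorins, neuropilins and plexins, the ligands and receptors of axon guidance, 10 were higher and 3 lower. The secreted class 3 ligands led: after SEMA3A came SEMA3C at 1.62 ± 0.09 and SEMA3B at 1.40 ± 0.07, and their coreceptor NRP2 had 1.08 ± 0.07.

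Beta-catenin target genes were higher in 11 of 22 cases and lower in 2 (12 and 4 without replicate 1), with a median of 0.16. AXIN2, a feedback inhibitor of Wnt signalling, read 8.21, 8.32 and 8.27 on shControl and 9.64, 9.83 and 9.78 on shCDK8 arrays, a log2 fold change of 1.48 ± 0.07. SOX9, a factor of intestinal crypts, had 1.02 ± 0.05 and the hyaluronan receptor CD44 0.98 ± 0.06. The Wnt ligands, receptors and destruction complex had 3 higher (8.82%) and 7 lower (20.6%) of 34, and 6 and 12 without replicate 1. WNT16 had 0.66 ± 0.05 and the Wnt antagonist DKK1 0.59 ± 0.07, while the receptor FZD3 had -0.79 ± 0.13 and the ligand WNT7B -0.60 ± 0.06. In the Notch pathway 6 of 24 were higher (25%) and 5 lower (20.8%), and 6 and 9 without replicate 1. The ligand JAG1 read 9.60, 9.45 and 9.56 against 11.39, 11.52 and 11.46, with 1.92 ± 0.06, the coactivator MAML2 had 1.54 ± 0.08 and the target HES1 0.79 ± 0.06, while the feedback gene NRARP had -0.83 ± 0.07.

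Among 34 EGF and FGF ligands and receptors, 9 were higher and 9 lower. The ligand neuregulin, NRG1, had 1.99 ± 0.14, its receptor ERBB3 -0.82 ± 0.07 and the PDGF family ligand PDGFC -0.98 ± 0.13. Feedback genes of the ERK pathway were higher in 9 of 20 cases and lower in 5, with the phosphatases DUSP4 at 1.45 ± 0.07 and DUSP5 at -0.91 ± 0.04, the receptor EPHA4 at 1.35 ± 0.10 and the ETS factor ETV1 at -0.95 ± 0.09. Of 26 immediate early genes, which growth signals switch on within minutes, 6 were higher and 10 lower. EGR1 read 12.92, 12.50 and 12.46 on shControl and 11.14, 11.02 and 11.05 on shCDK8 arrays, with -1.55 ± 0.12. KLF4 and JUN were higher (1.14 ± 0.08 and 0.69 ± 0.11) and JUNB lower (-0.59 ± 0.06).

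Genes of DNA replication were lower almost throughout. Of 48 measured genes of replication origins and forks, 40 were lower (83.3%, against 13.5% of all genes) and none was higher, with a median log2 fold change of -0.50. At an unadjusted p under 0.05 the limma fit gave 42 lower and 0 higher. Without replicate 1, 39 were lower, none was higher and the median was -0.44. PRIM1, the catalytic subunit of DNA primase, read 10.66, 10.69 and 10.62 on shControl and 9.04, 9.50 and 9.43 on shCDK8 arrays, and its log2 fold change of -1.34 ± 0.12 was the largest of the list. MCM2, a subunit of the replicative helicase, was 2.01-fold lower. The polymerase epsilon subunit POLE2 had -0.97 ± 0.14 and the catalytic subunit of polymerase alpha, POLA1, -0.83 ± 0.10. On the first shCDK8 array the list's median lay 0.71 below the shControl mean, against 0.40 and 0.47 on the other arrays of the group.

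E2F factors drive replication genes in late G1, and their DNA site was looked for in the promoters as the letters TTTGGCGC or TTTCGCGC on either strand, from 250 bases before to 50 after the gene's start. Of the 40 lower genes, 34 have a promoter in the RefSeq set used (GRCh38.p14), and 9 of them hold the letters (26.5%), against 236 of 14230 promoters of all genes tested (1.66%). These 9 are MCM2, MCM3, MCM6, MCM7, CDC6, POLA1, POLA2, POLE and POLE2, and 3 of their promoters are shown because they hold the site at different distances from the start. The stretch of MCM6 is chr2:135876509-135876608, minus strand, that of POLA1 chrX:24693755-24693814, plus strand and that of POLA2 chr11:65261883-65261942, plus strand, each 5′ to 3′ along the gene with the letters of the site in capitals.
MCM6: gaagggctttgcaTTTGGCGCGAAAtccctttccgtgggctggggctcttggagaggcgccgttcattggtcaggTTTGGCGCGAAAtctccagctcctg
POLA1: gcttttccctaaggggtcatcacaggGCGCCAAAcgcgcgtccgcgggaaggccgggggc
POLA2: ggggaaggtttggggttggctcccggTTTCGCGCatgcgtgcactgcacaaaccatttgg
In MCM6 the letters occur 4 times, as overlapping matches on opposite strands at each of 2 places, in MCM2 as 2 overlapping matches, and in the other 7 promoters once. MCM6 had a log2 fold change of -0.80 ± 0.09, POLA1 -0.83 ± 0.10 and POLA2 -0.36 ± 0.10. A match is a description of the sequence and not a measured binding site. The members of the list that were not called are not set beside them. The share may therefore belong to replication genes as such, and its link to the change was not tested.

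Genes that supply or package the new DNA were lower as well. Nucleotide synthesis had 16 lower and 0 higher of 28 genes, led by MTHFD1 of one-carbon metabolism (-0.89 ± 0.09), thymidine kinase TK1 (-0.82 ± 0.11) and the ribonucleotide reductase subunits RRM2 (-0.66 ± 0.07) and RRM1 (-0.57 ± 0.10). Replication-dependent histones had 20 lower and 0 higher of 38, among them H2BC13 at -1.26 ± 0.15 and H4C4 at -0.87 ± 0.18; these genes are near-identical copies whose probes may share signal, so single members are uncertain. Homologous recombination and Fanconi anaemia genes had 16 lower and 0 higher of 29, with the repair factor BRCA1 at -1.03 ± 0.08, FANCE at -0.70 ± 0.06 and the helicase BLM at -0.66 ± 0.08. At an unadjusted p under 0.05 in limma, the higher members of these 3 lists numbered 1, 0 and 1. Without replicate 1 the lists had 15, 19 and 15 lower and 2, 1 and 1 higher members. Of 29 E2F factors, cyclins, kinases and inhibitors of G1, 9 were lower and 3 higher. The E2F partner TFDP2 had -1.15 ± 0.12, the pocket protein RBL1 -0.88 ± 0.17 and the repressor E2F8 -0.86 ± 0.07, while the G1 kinase CDK6 was higher at 0.82 ± 0.11.

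Mitotic genes were lower in 33 of 53 cases and higher in 2, with a median of -0.37 (35, 3 and -0.28 without replicate 1). CDC25C, the phosphatase that activates CDK1 at mitotic entry, read 8.87, 8.97 and 8.98 against 7.47, 7.89 and 7.75, with -1.24 ± 0.11. The spindle protein HMMR had -1.05 ± 0.15, the checkpoint kinase TTK -0.83 ± 0.16 and separase, ESPL1, -0.69 ± 0.08. The 2 higher members were CDC25B (0.51) and KIF18A (0.39). Targets of p53, the tumour suppressor that is not mutated in HCT116 cells, were higher in 14 of 28 cases and lower in 2, with a median of 0.21. PLK2 led them, followed by TP53I3 at 1.13 ± 0.04, TIGAR, which limits glycolysis, at 0.99 ± 0.15 and sestrin SESN1 at 0.94 ± 0.11; the cell cycle inhibitor CDKN1A had 0.55 ± 0.07. In the BCL2 family 3 of 16 were higher and 3 lower (18.8% each; 3 and 5 without replicate 1), with BCL2 at 0.53 ± 0.05 and MCL1 at -0.39 ± 0.09.

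**Figure D4:**
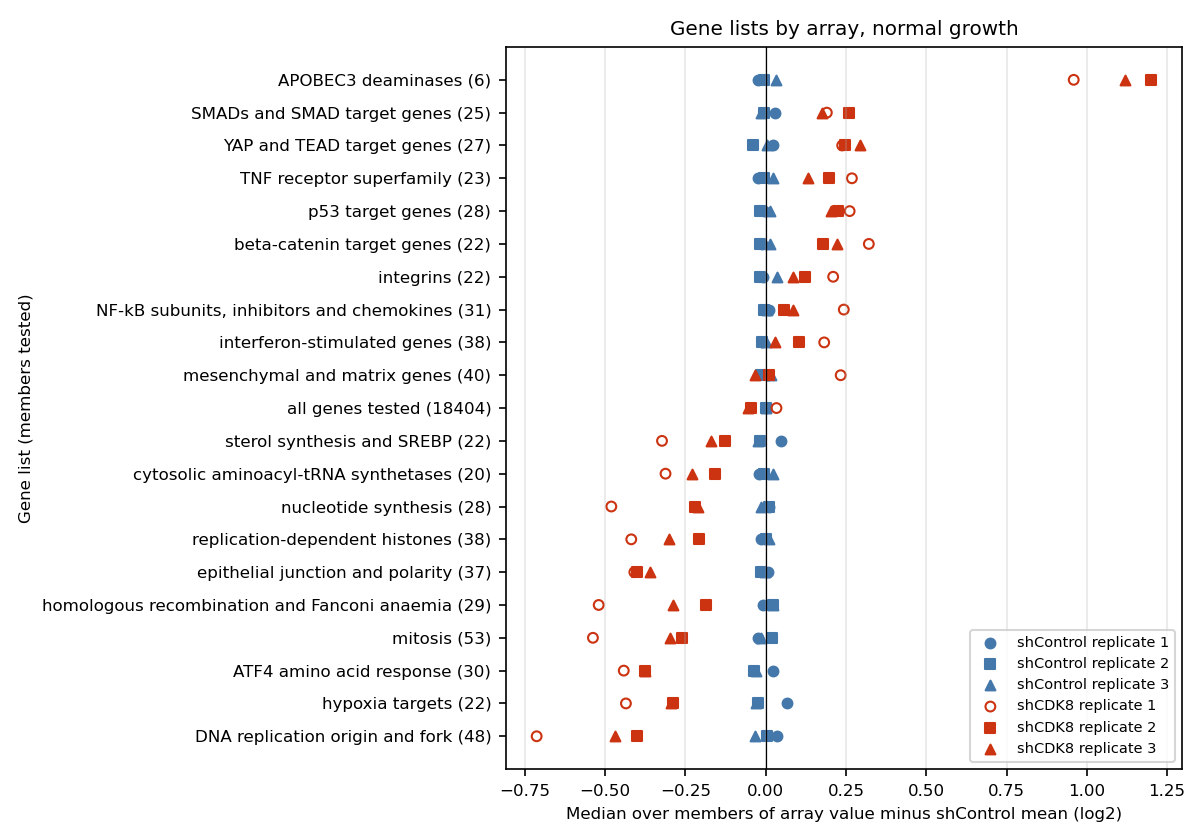
For each gene list, with the number of measured members in parentheses, the horizontal axis gives the median over members of the array's value minus the shControl mean (log2), 1 symbol per array. DNA replication lies at -0.71, -0.40 and -0.47 on the 3 shCDK8 arrays and the APOBEC3 genes at 0.96, 1.20 and 1.12, while the mesenchymal list spans 0 on the shCDK8 arrays.

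Genes of the amino acid response, which the transcription factor ATF4 induces when amino acids are short, were lower in 20 of 30 cases and higher in 1 (23 and 2 without replicate 1), with a median of -0.38 in both cases. CHAC1, a glutathione-degrading enzyme, read 11.75, 11.25 and 11.28 on shControl and 9.85, 9.70 and 9.79 on shCDK8 arrays, with -1.65 ± 0.12. The stress factor DDIT3 had -1.11 ± 0.12, the pseudokinase TRIB3 -1.10 ± 0.10 and the folate enzyme ALDH1L2 -0.93 ± 0.14. The composite site of ATF4, searched as TGATGNAA on either strand, is present in 2 of the 16 promoters known for the lower genes (12.5%), against 361 of 14230 (2.54%). They are those of CHAC1 (chr15:40953236-40953295, plus strand) and ASNS, asparagine synthetase (chr7:97872443-97872502, minus strand). Members of the list that were not called lower are not set beside them. Both are shown here with the match in capitals because they are the lower genes that hold it.
CHAC1: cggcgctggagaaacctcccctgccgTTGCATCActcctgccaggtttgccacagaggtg
ASNS: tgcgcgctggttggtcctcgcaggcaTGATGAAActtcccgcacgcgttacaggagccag
ASNS itself had a log2 fold change of -0.87 ± 0.07. The list was made of genes that ATF4 induces, so its share of sites may follow from that choice. Whether it goes with the change was not tested.

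Amino acid transporters were lower in 12 of 28 cases and higher in 3. After SLC38A5 came SLC7A8, a carrier of large neutral amino acids, at -2.04 ± 0.10 and the glutamate transporter SLC1A3 at -1.92 ± 0.09, while the related SLC1A1 was higher at 1.04 ± 0.12. Cytosolic aminoacyl-tRNA synthetases, which charge tRNAs, were lower in 11 of 20 cases and higher in 0 (also 0 at an unadjusted p under 0.05 in limma), with FARSB at -0.67 ± 0.06 and YARS1 at -0.50 ± 0.06. Of 22 genes of sterol synthesis and its SREBP control, 9 were lower and 3 higher, with squalene epoxidase, SQLE, at -1.14 ± 0.14 and SREBF2 at -0.51 ± 0.07. Of 33 genes of fatty acid and sphingolipid synthesis, 9 were lower (27.3%) and 4 higher (12.1%, near the share of all genes), or 10 and 7 without replicate 1; the lower members were led by SPTSSB and ELOVL6 (-0.60 ± 0.11). Respiratory chain subunits were lower in 16 of 31 cases and higher in 0 (also 0 at an unadjusted p under 0.05 in limma; 15 and 1 without replicate 1), with UQCRH at -0.70 ± 0.07 and NDUFS1 at -0.56 ± 0.07.

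Hypoxia targets were lower in 12 of 22 cases and higher in 1 in these cells without low oxygen treatment. EPAS1, the hypoxia-inducible factor HIF-2 alpha, read 9.77, 9.71 and 9.69 against 8.46, 8.59 and 8.58, with -1.18 ± 0.05. The peptide hormone ADM had -0.97 ± 0.06, the mTOR inhibitor DDIT4 -0.79 ± 0.12 and STC2 -0.75 ± 0.16. Of 25 glycolytic genes, 5 were higher and 7 lower, and without replicate 1 the balance turned to 7 higher and 4 lower. The glucose transporter SLC2A1 read 11.71, 11.67 and 11.85 against 13.50, 13.50 and 13.53, a log2 fold change of 1.77 ± 0.06, while hexokinase HK2 had -0.68 ± 0.06 and PDK1 -0.49 ± 0.06. Targets of the oxidative stress factor NRF2 were also split, with 6 higher and 7 lower of 29. The export pump ABCC3 had 2.38 ± 0.10 and thioredoxin reductase TXNRD1 -0.77 ± 0.07. Ribosomal proteins were called in few cases, 1 higher and 6 lower of 38 (3 and 8 without replicate 1), a share of lower genes near the 13.5% of all genes, and ribosome biogenesis had 2 higher and 9 lower of 31 (5 and 9 without it).

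Of 15 TNF superfamily ligands, 4 were higher and 0 lower (also 0 at an unadjusted p under 0.05 in limma): TNFSF18 and TNFSF4, then TNFSF9, the ligand of 4-1BB, at 0.80 ± 0.12 and the B cell factor TNFSF13B at 0.44 ± 0.11. The other 11 members gave the list a median of 0.07, which was -0.06 without replicate 1. Of 23 TNF receptors 12 were higher and 3 lower (12 and 5 without replicate 1), with the death receptor FAS at 0.80 ± 0.16, the ectodysplasin receptors EDA2R at 0.73 ± 0.07 and EDAR at 0.67 ± 0.09, and TNFRSF9 at 0.59 ± 0.10. TNFRSF18, the receptor of TNFSF18, was lower, at -0.28 ± 0.08.

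In the NF-kB list, 9 of 31 genes were higher and 4 lower. The inhibitor NFKBIA read 10.62, 10.58 and 10.65 against 11.54, 11.61 and 11.62, with 0.97 ± 0.06. TNFAIP3, which ends the signal, had 0.69 ± 0.10, lipocalin LCN2 0.72 ± 0.14 and the cytokine IL18 -1.19 ± 0.20. The NF-kB site, searched in its common form on either strand, is present in the promoters of 4 of the 9 higher genes (44.4%), against 79 of 14230 (0.555%). These are NFKBIA (chr14:35404797-35404856, minus strand), TNFAIP3 (chr6:137867166-137867225, plus strand), CXCL1 (chr4:73869288-73869347, plus strand) and NFKBIZ (chr3:101827741-101827800, plus strand), shown with the site in capitals because they are the higher genes that hold it.
NFKBIA: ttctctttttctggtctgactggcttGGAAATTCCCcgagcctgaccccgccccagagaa
TNFAIP3: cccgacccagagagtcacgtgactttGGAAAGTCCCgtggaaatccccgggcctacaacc
CXCL1: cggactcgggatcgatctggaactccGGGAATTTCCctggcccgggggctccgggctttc
NFKBIZ: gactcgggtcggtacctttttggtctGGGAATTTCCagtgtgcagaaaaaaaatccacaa
CXCL1, a neutrophil chemokine, had a log2 fold change of 0.33 ± 0.10 and the inhibitor NFKBIZ 0.28 ± 0.07. Members of this list that were not called higher are not set beside these. The share of sites may follow from the choice of NF-kB genes, and its link to the change was not tested. Among the 152 promoters known for the genes at least 2-fold higher, the NF-kB letters occur in 0. The AP-1 site TGANTCA occurs in 8 of those 152 (5.26%) and in 6 of 101 promoters of genes at least 2-fold lower (5.94%), close to the 5.58% of all promoters. The TCF site CTTTGAT was in 0 of the 6 promoters known for the higher beta-catenin targets, against 2.02% of all, and says nothing about the factor.

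All 6 APOBEC3 deaminases measured, enzymes that edit cytidine in retroviral DNA, were higher, with a median of 1.09. After APOBEC3G came APOBEC3F at 1.69 ± 0.05, APOBEC3D at 1.14 ± 0.09 and APOBEC3C at 1.05 ± 0.05, then APOBEC3B at 0.55 ± 0.09 and APOBEC3H at 0.53 ± 0.08. These paralogues lie side by side and are similar in sequence, so probes may share signal between them. Interferon-stimulated genes were higher in 13 of 38 cases and lower in 2 (16 and 4 without replicate 1), with IFI35 at 1.03 ± 0.09, IFIT1 at 0.90 ± 0.17 and the RNA sensor OAS1 at 0.85 ± 0.07. Of 18 antigen presentation genes, 6 were higher and 3 lower. The peptide-trimming enzymes ERAP1 and ERAP2 had 0.70 ± 0.13 and 0.69 ± 0.14, and the stress ligand of NK cells ULBP1 was lower, at -1.56 ± 0.07 from shControl values of 11.06, 10.77 and 10.82.

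The other subunits of the Mediator kinase module changed little. MED12 had 0.46 ± 0.06, MED13L 0.18 ± 0.04 and cyclin C, CCNC, -0.34 ± 0.10; of the 6 measured, these 3 were called. In core Mediator 2 of 24 were higher (8.33%, below the 11.4% of all genes) and 6 lower (25%), with the extremes MED23 at 0.40 ± 0.07 and MED21 at -0.32 ± 0.07. Of 17 members of P-TEFb and the super elongation complex, which release paused RNA polymerase II, 7 were lower and 1 higher, or 7 and 4 without replicate 1. AFF4, the scaffold of the complex, read 10.21, 10.18 and 10.14 on shControl and 8.64, 8.77 and 8.74 on shCDK8 arrays, with -1.46 ± 0.06 and no overlap. MLLT3 had -0.95 ± 0.11, NELFCD -0.47 ± 0.08 and the P-TEFb inhibitor HEXIM1 0.33 ± 0.09.

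HOX genes, which set position along the body axis, were higher in 7 of 27 cases and lower in 2 (8 and 4 without replicate 1), and all 7 higher genes lie in the HOXB cluster, led by HOXB5 at 1.49 ± 0.15, HOXB6 at 1.20 ± 0.10, HOXB8 at 1.08 ± 0.08 and HOXB3 at 1.05 ± 0.10. Of 36 genes of intestinal epithelial differentiation, 5 were higher (13.9%, near the share of all genes) and 2 lower, or 6 and 6 without replicate 1. LYZ, which Paneth cells secrete, and the adhesion protein CEACAM1 (2.46 ± 0.13) were higher, and DPP4 lower. Of 13 leukocyte markers measured, LYZ and CD68 (0.63 ± 0.06) were higher, CORO1A (-0.92 ± 0.07) and LCP1 (-0.86 ± 0.10) lower, and the defining markers PTPRC, CD3E and MS4A1 were under 7 in shControl cells and not called; without replicate 1, 2 were higher and 5 lower. Their summed linear level was 1990 to 2060 in shControl and 3670 to 3780 in shCDK8 cells, and 1960 to 2020 against 2020 to 2330 with LYZ left out. Neuronal markers were called in 3 of 11 cases, VSNL1 and SNAP25 (2.13 ± 0.12) higher and MAP2 (-0.81 ± 0.10) lower; with VSNL1 and SNAP25 left out, their summed level was 3700 to 3790 against 3240 to 3730. Endothelial markers had 0 of 11 called in the limma fit, also at an unadjusted p under 0.05, and 4 lower without replicate 1; VWF had -0.23 ± 0.13.

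Several of the changed genes are neighbours. In RefSeq's gene order, 26 pairs of adjacent genes tested both changed at least 2-fold, and 25 of the pairs moved in the same direction. The longest run was NECTIN3 (1.39), CD96 (1.33), ZBED2 (3.44), PLCXD2 (1.38), PHLDB2 (2.58) and ABHD10 (1.13), all higher. TNFSF18 and TNFSF4 form another pair, as do S100A4 and S100A3 (2.33), the keratins KRT80 (1.61) and KRT7 (1.39), and SPARC and the copper chaperone gene ATOX1 (1.52). On the lower side stand MKX (-2.30), ODAD2 (-2.28) and MPP7 in a row, and the prostaglandin genes PTGS2 (-1.27) and PLA2G4A (-1.48). The pair that moved apart was MACC1 (-1.43) and ITGB8. The run of APOBEC3C, APOBEC3D, APOBEC3F and APOBEC3G, whose probes may share signal, is also among the pairs. A run of genes gives several pairs that overlap, so the pairs are not separate cases. These genes were picked by their changes, and the share over all adjacent pairs is not given here. The counts therefore describe them and carry no test.

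The hairpin against CDK19 shares its shControl arrays with this comparison, so its values are given side by side. It changed 1301 genes (7.07%) against the same controls. VSNL1, EHF and FGF9 were also high with it, at 5.28 ± 0.07, 4.47 ± 0.13 and 3.28 ± 0.18 on the log2 scale. Their differences, shCDK8 minus shCDK19, were -0.15 ± 0.07, -0.33 ± 0.13 and 0.10 ± 0.18 and did not pass the direct test (adjusted p = 0.137, 0.119 and 0.791, limma), which does not show that the hairpins act alike. TGFB2 had 3.14 ± 0.08 with shCDK19, below its value with shCDK8 by the same test (adjusted p = 0.00263). TNFSF18 had 0.88 ± 0.15, LYZ 1.31 ± 0.11 and SEMA3A 0.73 ± 0.06, each smaller than with shCDK8 (adjusted p = 7.19e-07, 5.65e-07 and 3.47e-07). TNFSF4 had -0.04 ± 0.14, CYB5A 0.15 ± 0.14 and MEF2C -0.00 ± 0.11, and these also differed between the hairpins (adjusted p = 1.24e-06, 1.24e-06 and 2.68e-06). SLC1A3 had 1.99 ± 0.09, opposite to shCDK8. Compared directly, shCDK8 and shCDK19 cells differed in 4805 genes (26.1%).

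The 329 genes with at least 2-fold changes were then followed in the 3 experiments with treated cells, which share no array with normal growth. In low glucose, where 22.3% of genes were called (12.1% higher and 10.2% lower), 192 of the 207 higher genes and 116 of the 122 lower genes had the same sign, and 165 and 100 were called in that direction. With 5-fluorouracil, where 3.5% of genes were called (1.59% and 1.91%), 184 and 109 had the same sign and 84 and 61 were called. In hypoxia, where 7.3% were called (4.81% and 2.49%), all 207 and 121 of 122 had the same sign, with 188 and 90 called. The median log2 fold change of the 207 higher genes was 1.39 in normal growth, 0.72 in low glucose, 0.41 with 5-fluorouracil and 1.46 in hypoxia, and that of the 122 lower genes -1.27, -0.65, -0.65 and -1.05. The effect differed from normal growth by the interaction test for 155 of the higher and 77 of the lower genes in low glucose. With 5-fluorouracil it did so for 176 and 84, and in hypoxia for 42 and 37. These genes were chosen by their size in normal growth, which enters that contrast and the medians there. The counts are therefore a description, and a smaller median elsewhere may follow from the choice. The share of same signs over all genes is not given here. Called in the opposite direction were 6 and 4 genes in low glucose and 1 and 1 with 5-fluorouracil. Over all 18404 genes, which are not independent replicates, the log2 fold changes in normal growth correlated with those in low glucose at r = 0.60, with 5-fluorouracil at 0.49 and in hypoxia at 0.68. Of the 329 genes with at least 2-fold changes in normal growth, 73 were called higher in all 4 experiments and 50 lower.

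TM4SF18, VSNL1, TNFSF4 and SEMA3A had log2 fold changes of at least 3.63 in each experiment: TNFSF4 had 4.25 ± 0.08 in low glucose, 3.63 ± 0.11 with 5-fluorouracil and 4.58 ± 0.09 in hypoxia, and SEMA3A 4.66 ± 0.09, 3.68 ± 0.15 and 5.03 ± 0.15. On the lower side NFIB had -2.74 ± 0.08, -2.68 ± 0.09 and -2.33 ± 0.17, and AFF4 -1.68 ± 0.04, -2.14 ± 0.12 and -1.63 ± 0.15. LYZ had 1.29 ± 0.14 in low glucose, 0.13 ± 0.15 with 5-fluorouracil, which did not pass the test, and 4.89 ± 0.12 in hypoxia. Its effect differed from that in normal growth in the first 2 of these (adjusted p = 2.01e-13 and 2.13e-14, limma interaction) and not by the test in hypoxia (0.0843). APOBEC3G likewise had 1.30 ± 0.10, 0.25 ± 0.14 and 3.49 ± 0.15, and SPARC 1.05 ± 0.11, 0.67 ± 0.16 and 3.63 ± 0.17; for both, the value with 5-fluorouracil did not pass. CDH1 had -0.11 ± 0.05 in low glucose, which did not pass, -0.94 ± 0.11 with 5-fluorouracil and -1.36 ± 0.09 in hypoxia, and RAB25 had -0.07 ± 0.04, -0.39 ± 0.07 and -1.90 ± 0.13, of which the last passed.

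Of the 48 replication genes, 2 were higher and 6 lower in low glucose, 0 and 1 with 5-fluorouracil, and 0 and 2 in hypoxia, against 0 and 40 in normal growth. Over all genes, 12.1%, 1.59% and 4.81% were called higher in these 3 experiments and 10.2%, 1.91% and 2.49% lower. In normal growth 11.4% and 13.5% were called, so counts of any list do not compare directly between experiments. The median log2 fold change of the replication genes was -0.12, -0.03 and -0.02, against -0.50 in normal growth. With shCDK8 replicate 1 in the fit, the difference of the shCDK8 effect from normal growth was itself called for 26, 29 and 28 of these 48 genes. This difference was not counted for the list without that array. Over all genes it was called for 12.8%, 11.9% and 11.5%. Mitotic genes had 0 higher and 20 lower of 53 in low glucose, 7 and 0 with 5-fluorouracil, and 0 and 8 in hypoxia, and their effect differed from normal growth for 11, 31 and 5 genes. Replication-dependent histones had 22 lower in low glucose, 3 higher with 5-fluorouracil and 4 lower in hypoxia. Epithelial junction genes had 8 higher and 12 lower of 37 in low glucose, 1 and 9 with 5-fluorouracil, and 2 and 16 in hypoxia. Of the 6 APOBEC3 genes, 3 were higher in low glucose, 0 with 5-fluorouracil and 4 in hypoxia. PRIM1, the leading replication gene, had -0.41 ± 0.09, -0.14 ± 0.15 and -0.96 ± 0.11, of which the value with 5-fluorouracil did not pass. Fewer arrays per group in 2 of these experiments limit what can be called there.

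**Figure D5:**
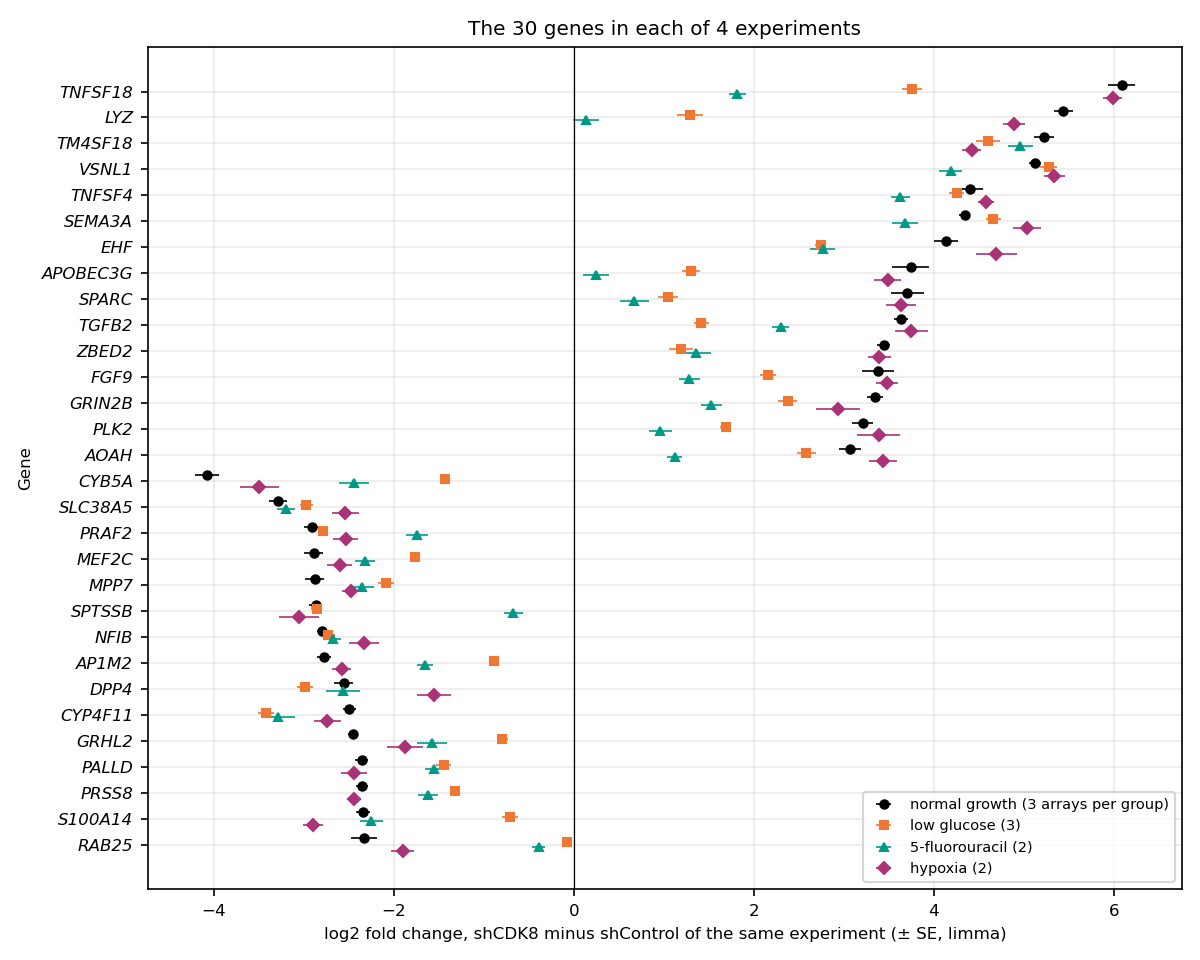
Log2 fold changes of shCDK8 against the shControl cells of the same experiment for the 30 genes, with bars of 1 SE from limma, by experiment (3 arrays per group in normal growth and low glucose, 2 with 5-fluorouracil and in hypoxia). LYZ runs from 0.13 with 5-fluorouracil to 5.44 in normal growth, while SEMA3A stays between 3.68 and 5.03.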

How the data were processed

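Log2 values per transcript cluster were deposited by the authors, who used Partek per the submitters' processing notes (version and normalization not given in the sources used here) and a one-way analysis of variance per the series' design text. The table has 32321 clusters; 19158 name 1 gene symbol in the array annotation, 1388 several and 11775 none, and the first were kept. Where a gene had over 1 cluster (637 genes) 1 cluster was used, and 18404 genes were tested. No pair of arrays held identical values.

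The main fit (limma 3.58.1 in R 4.3.3) took the 9 normal growth arrays with 1 mean per group and a shared spread. Tests are two-sided, with Benjamini-Hochberg adjustment over all genes and a threshold of 0.05. Differences of effect between experiments were interaction contrasts over all 35 arrays, with 1 spread per gene shared by all of them. The other experiments' effects were fitted within each experiment. The analysis was tested on simulated data.

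The genes named are CDK8 and CDK19, the 15 highest and 15 lowest changes among called genes whose replicates do not overlap and which pass without shCDK8 replicate 1, up to 4 called members with the largest change from each of 48 gene lists (1302 genes, 1188 measured), genes that stand out on replicate 1, and up to 5 per direction for each difference of effects. Members holding a promoter site, other members of short lists, TNFRSF18, CDKN1A and neighbours were chosen after their values were seen. The comparison and the lists were chosen with earlier results of these data known. Promoter sequences and gene order are from RefSeq, and 14230 of the genes tested have a promoter there. Alternatives left out each array in turn, blocked on replicate number, changed the arrays in the fit, subtracted medians, normalized by quantiles, filtered dim genes, weighted arrays, used plain analysis of variance or averaged clusters.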

Additional observations from a re-analysis of the deposited data

Results flagged for a closer look

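The effect of the CDK8 hairpin differed between normal growth and each of the other experiments for many genes, by a test of the difference itself (limma interaction contrasts over all 35 arrays, adjusted p under 0.05). Replicate 1 of shCDK8 in normal growth is among these arrays. Without it, the number of genes that differed stayed within 1.5 times of each count given here. Single genes are given with it only. Between low glucose and normal growth the effect differed for 2362 genes (12.8%). CYB5A was lowered less in low glucose, at -1.43 ± 0.05, and RAB25 was at -0.07 ± 0.04 there, against -4.08 ± 0.14 and -2.33 ± 0.14 in normal growth. TM4SF1, a surface protein of the same family as TM4SF18, rose by 3.55 ± 0.06 in low glucose and 0.51 ± 0.08 in normal growth, the glucose transporter SLC5A1 by 2.88 ± 0.13 and 0.34 ± 0.08, and EDA2R by 2.93 ± 0.14 and 0.73 ± 0.07. In the other direction, SUSD2, a surface protein, had -0.31 ± 0.07 against 2.88 ± 0.06, and the class II antigen-presenting chain HLA-DPA1 -0.76 ± 0.08 against 1.77 ± 0.16.

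Between 5-fluorouracil and normal growth the effect differed for 2186 genes (11.9%). CHAC1 had 0.60 ± 0.18 with the drug, which did not pass the test, against -1.65 ± 0.12. SKAP2, an adaptor protein, had 0.27 ± 0.13 against -1.84 ± 0.15, EGR1 0.45 ± 0.20 against -1.55 ± 0.12, and the spliceosomal RNA gene RNVU1-4 1.62 ± 0.15 against -0.44 ± 0.15. With the drug SKAP2 and EGR1 did not pass the test, and RNVU1-4 did not pass in normal growth. TNFSF18 had 1.82 ± 0.10 against 6.09 ± 0.15, and SUSD2 -0.31 ± 0.13, which did not pass, against 2.88 ± 0.06.

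Between hypoxia and normal growth the effect differed for 2118 genes (11.5%). INSIG1 and STARD4, genes of cholesterol control, had -2.41 ± 0.07 and -1.98 ± 0.20 in hypoxia against -0.11 ± 0.10 and -0.21 ± 0.10. The hypoxia-induced gene ANKRD37 had -2.45 ± 0.08 against -0.20 ± 0.13, the phosphatase DUSP1 -2.46 ± 0.09 against -0.36 ± 0.10 and the MYC antagonist MXD1 -2.33 ± 0.18 against -0.45 ± 0.09. SLC10A5 had 1.63 ± 0.40, CHRNA5 1.08 ± 0.30, FAM111B 1.54 ± 0.32 and UTP15 1.63 ± 0.44, none of which passed within hypoxia, against -0.16 ± 0.18, -0.47 ± 0.09, 0.02 ± 0.17 and 0.19 ± 0.12. POGLUT1, a glucosyltransferase that modifies Notch, had 1.89 ± 0.24 against 0.53 ± 0.16. Each experiment was run with its own controls, so a batch of arrays and the treatment cannot be told apart in these differences.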

How the results depend on the processing

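Over 15 alternatives, the 30 genes with the highest and lowest changes kept their direction and their call in all 450 values, which says little since they were chosen as called, without overlap and passing without shCDK8 replicate 1; 564 of all 572 values compared stayed on their side of the threshold or within 1.5 times of the count. Leaving out 1 of the 6 shControl and shCDK8 arrays at a time gave 3190 to 6713 changed genes. Of these, 1509 to 2946 were higher, 1681 to 3767 lower and 324 to 354 at least 2-fold. The highest counts of changed genes came without shCDK8 replicate 1, with 3767 lower against 2488. The direct difference from shCDK19 gave 3866 to 7349 genes, the highest again without that array. Array weights, which gave shCDK8 replicate 1 a weight of 0.09 and whose iteration stopped before it converged, gave 10954 changed genes, 4218 higher and 6736 lower. CDK19, not called in the main fit, was called in a fit of only the 6 arrays (0.33, adjusted p = 0.0163, limma), of all 35 arrays (0.33, adjusted p = 0.0185) and with array weights (0.39, adjusted p = 0.000456), and over all alternatives its adjusted p ran from 0.000456 to 0.196. The cause was not tested. The CDK8 cluster ran from -2.31 to -1.84 when 1 array was left out. Replicate numbers were tested as a block although the samples share only a number: the correlations of same-numbered arrays' deviations were 0.0019, 0.090 and 0.027, not every array correlated best with its own number, and the replicate block gave 3742 changed genes. With medians subtracted, 1480 genes were higher and 2225 lower, and with quantiles 2290 and 2920. With 3 arrays a group the spread is known only roughly, and genes near the lower bound of 4.32 have compressed changes.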
